A study of Drosophila melanogaster with 18 samples.

Results

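A set of 74 transcripts was abundant and steady in diploid Drosophila embryos up to early nuclear cycle 14 and at least 2-fold lower by late cycle 14. They were picked from 11982 genes that have a probe set naming a single symbol, the brightest probe set standing for each gene. The rule asked for a log2 level of at least 8 (an intensity of 256) in diploid cycle 13, a difference of no more than 0.3 on the log2 scale between cycle 13 and early cycle 14, and a difference of at least 1 between early and late cycle 14. In all, 77 genes met these thresholds, and bcd, smg and zen2 were left out by name. The diploid arrays chose the members, so their diploid differences are given below as a description, and every test compared haploid groups. The spread behind these tests was taken over the diploid arrays as well.

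Haploid embryos had the genotype maternal haploid with histone H2-GFP parents, and diploid embryos had the genotype w with histone H2-GFP parents, so that all embryos came from parents with a GFP-tagged histone. Haploid collections were made in cycle 14, 15 min from the telophase that closed cycle 13, and in early and late cycle 15, 15 min and 40 min from the telophase that closed cycle 14. Diploid collections were made 1 cycle earlier on the same clock: in cycle 13 (15 min), early cycle 14 (15 min) and late cycle 14 (40 min). Each of the 6 groups had 3 biological replicates of about 50 pooled, hand-picked embryos and 1 Affymetrix array per replicate. The collections pair every diploid stage with a haploid stage 1 cycle later, and so address whether events of this period follow the count of divisions or the amount of DNA in the embryo. No haploid collection was made between 15 min of cycle 14 and 15 min of cycle 15, so the course of a transcript inside that interval was not measured. Ploidy and parental stock cannot be told apart in any haploid and diploid comparison, and ploidy is taken from the labels.

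A fly egg is loaded with RNA made by the mother, and the first nuclear divisions run almost without transcription by the embryo. Maternal RNAs are removed at the maternal-to-zygotic transition by a pathway set off at egg activation, in which the protein Smaug recruits a deadenylase complex, and by later pathways that need products of the zygotic genome. Cycle 14 is the long interphase in which a diploid embryo builds cells around its nuclei, while a haploid embryo usually adds 1 division before it does so. The arrays do not separate RNA loaded by the mother from RNA made in the embryo, and whether the 74 transcripts were maternal was not tested.

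Levels are quantile-normalised intensities, so each difference is relative to the other transcripts on the array. Differences between groups are on the log2 scale, where a fall of 1 is a 2-fold lower level, with standard errors (SE) and adjusted p-values from limma. The first haploid step is haploid early cycle 15 minus haploid cycle 14, and the second is haploid late minus early cycle 15. The p-values rest on the spread among replicates of pooled embryos, taken over all 6 groups of 3 arrays, diploid groups included. That spread was moderated with an intensity trend across probe sets. In whole embryos, fewer cells of a type and less RNA per cell cannot be told apart.

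Replicate arrays correlated at 0.928 to 0.947 (Pearson, log2 levels of tested probe sets). Their deposited upper quartiles ran from 85.7 to 137 in haploids. In diploids they ran from 206 to 268 in cycle 13, 184 to 215 in early cycle 14 and 128 to 136 in late cycle 14. The late diploid arrays thus lay within the haploid range, and the earlier diploid arrays above it. The normalisation removed these differences, which include a drop across the diploid step that chose the members. The 11 measured blastoderm markers summed to 10174 to 10443 in haploid cycle 14, 16233 to 19635 in early cycle 15 and 21689 to 23648 in late cycle 15, against 8056 to 9634, 16947 to 18037 and 23355 to 26088 in the 3 diploid stages in order. Of the 11 markers of maternal tissues, 4 were below background on all arrays, and their sum stayed between 130 and 451 everywhere. The 6 measured pole cell and germ plasm markers summed to 3673 to 4606, 2014 to 2548 and 1449 to 1634 in the haploid stages, against 9479 to 9741, 3773 to 4558 and 1769 to 1869 in the diploid stages. The 4 measured later embryo markers, 2 of them below background on all arrays, summed to 65.4 to 111, 198 to 247 and 793 to 902 in the haploid stages. Their diploid sums were 41.7 to 57.4, 70.0 to 87.5 and 298 to 301. The part of these markers in the differences between haploid and diploid levels was not tested. A probe set for 18S ribosomal RNA stood apart in haploid late cycle 15, at 654 to 1173 against 160 to 585 in the other 5 groups. Its part in the second haploid step was not tested.

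The rule drew its lines through a continuous range of values. At the level threshold, Reps (8.01 on the log2 scale), CenG1A (8.06) and mdy (8.13) lay just inside, and Rbf (7.95), Pgant9 (7.88) and anchor (7.84) just outside. At the limit of 0.3 between cycle 13 and early cycle 14, CenG1A, ova and CG33090 were inside at -0.29 each, and S, CG5886 and CG9485 were outside at -0.30 each. At the size of the later diploid fall, CG12567 (1.01), out (1.02) and CG2218 (1.04) were inside, and fdl, Pms2 and ZnT63C were outside at 0.99 each. A further 256 genes missed by the level alone, 337 by the early difference alone and 1633 by the size of the fall alone. The set depended on the scale: the same thresholds on the deposited values found 317 genes, 58 of them among the 74.

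The 74 members had a median intensity of 757 in haploid cycle 14, 556 in early cycle 15 and 202 in late cycle 15. In diploids the median was 864 in cycle 13, 833 in early cycle 14 and 288 in late cycle 14. Marf1, a regulator of oocyte mRNA decay, was the most abundant member in all 6 groups. At the low end, 3 members lay below background on all haploid late cycle 15 arrays, where background is an intensity of 31.9, the 95th percentile of the values of 20 probe sets that serve as negative controls. These were CenG1A, CG5455 and CG4586. CenG1A was also below it on all diploid late cycle 14 arrays.

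**Figure D1:**
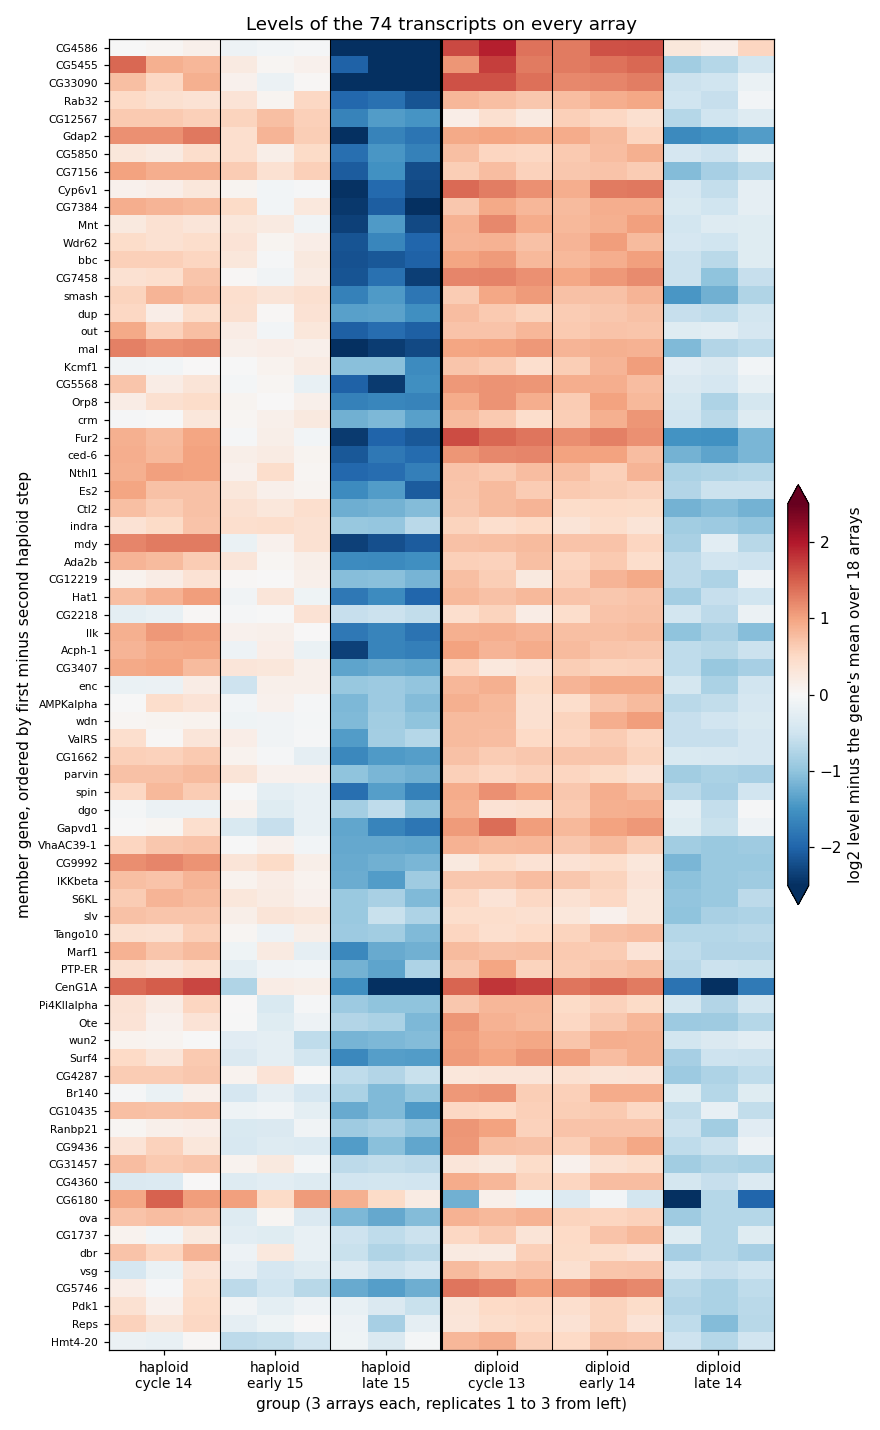
Log2 level of each of the 74 transcripts (rows) on each of the 18 arrays (columns, 3 per group) minus the gene's mean over all arrays, with haploid groups left of diploid groups and colours capped at 2.5 either way. Rows run from the largest excess of the second haploid fall at the top to Hmt4-20 at the bottom, and most rows are palest in haploid early cycle 15 and darkest blue in haploid late cycle 15.

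In haploids more of the transcripts fell in the second step than in the first. In the first step 48 of 74 fell and 0 rose at an adjusted p of 0.05, where 9.87% of all tested probe sets and 27.7% of genes at 256 or above fell (10.4% of tested probe sets rose). The second step lowered 68 and raised 1, where 14.8% and 36.2% fell. From cycle 14 to late cycle 15, 71 fell and 0 rose, against 18.2% of tested probe sets and 43.3% of the genes at 256 or above. A fall of at least 2-fold over that whole span was measured for 63 members, where 10.2% and 20.8% fell that far. On the deposited values the first step called 29 members, 26 lower and 3 higher.

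The median change of the members was -0.49 in the first step, -1.32 in the second and -1.93 over both. The medians over all 10025 tested genes were 0.02, -0.02 and -0.02. The first-step median of the members was -0.28 on the deposited values and -0.74 with median centring. Late cycle 15 arrays lay below all early cycle 15 arrays for 69 members, which held for 19.5% of tested probe sets and 38.4% of genes at 256 or above. All early cycle 15 arrays lay below all cycle 14 arrays for 57 members, against 15.1% and 33%. Over the whole span, 72 members had haploid arrays that did not overlap, against 22.7% and 45.2%.

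The difference between the steps was tested as a contrast of its own. The fall was larger in the second step for 47 members and larger in the first for 1, where 7.58% and 5.93% of tested probe sets passed in those directions (18.8% and 11.1% of genes at 256 or above). For the 63 members that fell at least 2-fold, the share of the log2 fall already present at early cycle 15 had a median of 28.4%, with quartiles of 14.8% and 34.8%. On the deposited values that median was 16.9%. The share was under 50% for 60 of the 63 (95.2%). Among the 685 genes at 256 or above with such a fall, the median share was 35.8%, and 74.3% had a share under 50%.

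**Figure D2:**
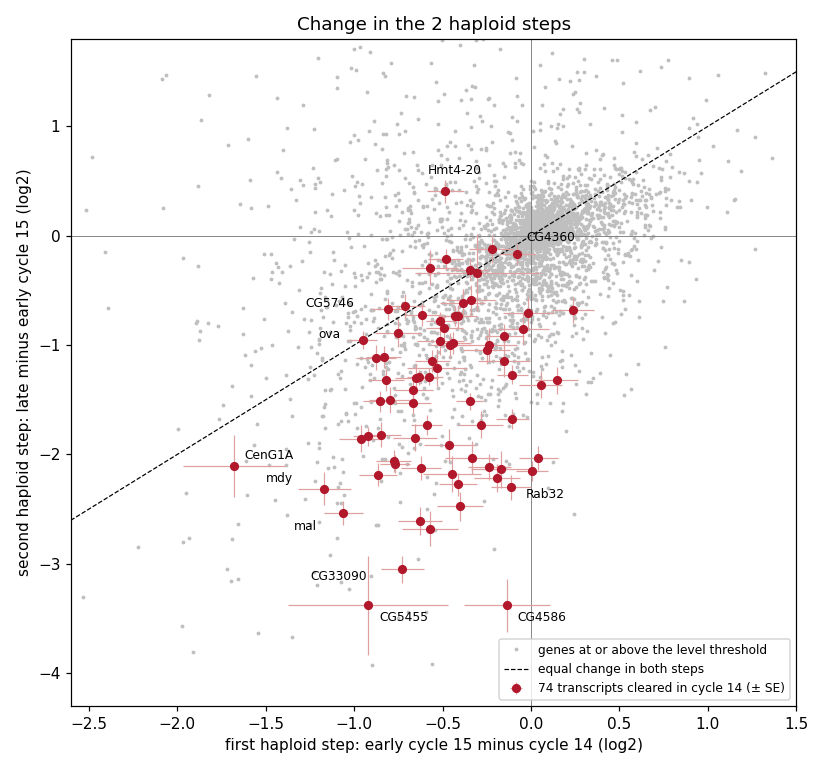
Change in the first haploid step (horizontal, log2) against change in the second (vertical, log2) for the 74 transcripts (red, bars are SE, n = 3 arrays per group) and for genes at 256 or above in diploid cycle 13 (grey, some outside the axes). Nearly all red points lie below the line of equal change, with Hmt4-20 above 0 in the second step and CG4586 and CG5455 lowest; those of CG4586, CG5455 and CenG1A are fitted values from late arrays under background.

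For comparison, 334 genes met the same level threshold in diploid cycle 13 but were already at least 2-fold lower in early cycle 14. In haploids these had a median of -0.82 in the first step and 0.04 in the second. In the first step 72.8% of them fell, beside 27.7% of all genes at 256 or above. In the second, 118 fell (35.3%, beside 36.2% of all genes at 256 or above). A rise was called for 123 of the 334, where 19.2% of all genes at 256 or above rose. Their share of the fall present at early cycle 15 had a median of 54.1%, over 150 genes that fell at least 2-fold. A set of 1111 genes that stayed level through all 3 diploid stages had haploid medians of 0.00 and -0.05. Of these, 39 fell at least 2-fold over both haploid steps. Their median share at early cycle 15 was 19.2%, and it was under 50% for all 39, so a late-weighted fall was not particular to the members.

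**Figure D3:**
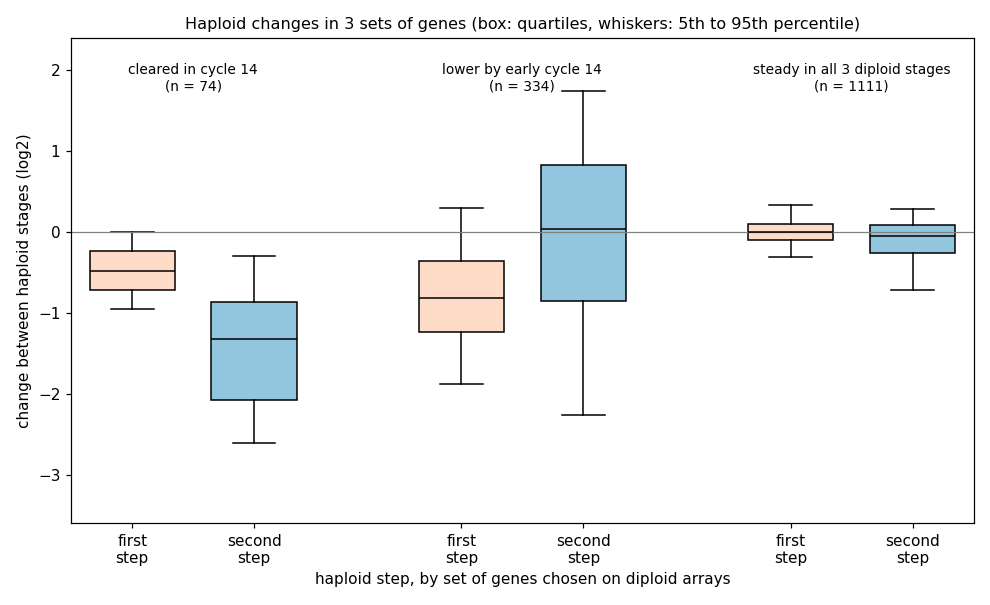
Change in the first (orange) and second (blue) haploid step, in log2, for 74 transcripts cleared in cycle 14, 334 genes already lower by early cycle 14 and 1111 genes steady in all diploid stages, with boxes at the quartiles and whiskers at the 5th and 95th percentiles. The medians are -0.49 and -1.32, -0.82 and 0.04, and 0.00 and -0.05 in that order.

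By pattern, 45 members fell in both steps and 23 fell in the second with no call in the first. Reps and Pdk1 fell in the first with no call in the second. CG6180, CG4360 and vsg had no call in either step, and Hmt4-20 fell and then rose. Across the 74 members the size of the haploid fall went with the size of the diploid one, with a Pearson r of 0.51 and a Spearman rho of 0.45. This is a description over genes measured by the same probe sets, and it was not tested. The rule kept only diploid falls of at least 1, so the diploid range was cut. CenG1A, CG5455 and CG4586 entered with fitted falls from late haploid arrays under background.

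Members were sorted by what their products do, after the list was known. Of all members, 64.9% fell in the first step, 91.9% in the second and 95.9% over both. Whether any role group differed from these shares was not tested. The largest group held 16 genes of membrane traffic, the lysosome and lipid handling, of which 14 fell in the first step, 15 in the second and 16 over both, with a median of -2.16 over both. This grouping was made after the members were seen. On a separate list of 36 measured genes of membrane traffic and lipid, which holds mdy alone of the members, 13 fell and 12 rose over both steps with a median of -0.05, where 18.2% of tested probe sets fell and 19.6% rose. CenG1A encodes a GTPase-activating protein for Arf GTPases, and it had the largest diploid difference of all members. It read 228, 246 and 274 in haploid cycle 14, 50.7, 97.7 and 94.3 in early cycle 15 and 29.5, 13.5 and 14.7 in late cycle 15. In diploids it read 235, 295 and 276 in cycle 13, 217, 227 and 212 in early cycle 14 and 23.8, 12.4 and 25.1 in late cycle 14. No haploid group overlapped the next, and the late values of both ploidies were under background.

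Its first-step fall of -1.68 ± 0.29 (SE, adjusted p = 9.6e-05 in limma) was the largest of any member. The second step lowered CenG1A by at least 2.43-fold (adjusted p = 2.2e-06 for the fitted step). Its haploid level fell by at least 7.78-fold over both, and both folds were measured against background. The corresponding diploid difference was at least 6.84-fold.

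ced-6 encodes the adaptor of the engulfment receptor Draper. Its intensities were 2688, 2527 and 2884 in haploid cycle 14, 1587, 1648 and 1512 in early cycle 15 and 330, 414 and 379 in late cycle 15. Diploid arrays gave 3081, 3297 and 3358, then 2896, 2862 and 2436, then 631, 578 and 648 through the same order of stages. The haploid groups were apart at each step, with most of the loss in the second. Its steps were -0.77 ± 0.08 (adjusted p = 2.1e-07) and -2.09 ± 0.08 (adjusted p = 5.6e-15), and they differed by 1.32 ± 0.14 (adjusted p = 6.6e-07).

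Fur2, a furin-like protease that cuts proproteins in the secretory pathway, was at 1268, 1181 and 1358, then 672, 756 and 657, then 131, 171 and 158 in the haploid stages. Its diploid levels were 2115, 1855 and 1737 in cycle 13, 1530, 1634 and 1507 in early cycle 14 and 244, 240 and 310 in late cycle 14. The haploid arrays separated cleanly at both steps, and the late haploid arrays were the lowest of all. Over both steps Fur2 fell 8.31-fold (log2 -3.05, adjusted p = 6.1e-17).

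mdy encodes the diacylglycerol acyltransferase that makes storage lipid. Haploid arrays read 388, 409 and 405 in cycle 14, 147, 179 and 215 in early cycle 15 and 32.8, 35.9 and 39.1 in late cycle 15. Diploid arrays read 276, 279 and 286, then 271, 270 and 242, then 94.5, 139 and 102. It started higher in haploids than in either earlier diploid stage and ended lower than in diploids, with no overlap between consecutive haploid groups. The steps were -1.17 ± 0.15 (adjusted p = 2.3e-06) and -2.31 ± 0.15 (adjusted p = 1.0e-11).

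Acph-1, a lysosomal acid phosphatase, fell by 0.96 ± 0.12 on the log2 scale in the first step (adjusted p = 1.9e-06) and changed by -1.86 ± 0.12 in the second (adjusted p = 1.3e-11). The V-ATPase subunit gene VhaAC39-1 fell 3.80-fold over both, the lysosomal transporter gene spin 4.93-fold, and Surf4, a cargo receptor of the endoplasmic reticulum, 3.84-fold. bbc, which acts in phospholipid synthesis, fell 6.44-fold and the choline transporter-like gene Ctl2 fell 3.63-fold. These 5 were chosen as examples after their values were seen, and all 5 passed in each step.

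Rab32, a GTPase of lysosome-related organelles, differed from most of that group in its timing. It read 2285, 2125 and 2061 in haploid cycle 14, 2032, 1696 and 2300 in early cycle 15 and 413, 444 and 360 in late cycle 15. In diploids it read 2880, 2718 and 2586, then 2739, 3015 and 3157, then 1148, 1085 and 1546. The cycle 14 and early cycle 15 haploid groups overlapped, and the late one lay far under both. Its first step was -0.11 ± 0.11 (adjusted p = 0.58), its second -2.30 ± 0.11 (adjusted p = 1.1e-13), and the steps differed by 2.19 ± 0.19 (adjusted p = 5.3e-08). Reps, an EH-domain protein of endocytosis, fell in the first step by 0.57 ± 0.16 (adjusted p = 0.0095), while its second step was -0.29 ± 0.16 (adjusted p = 0.19). Without replicate 1 of haploid early cycle 15 the first-step call of Reps was lost (adjusted p = 0.051).

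The 4 genes of adhesion and polarity all fell in the second step and over both, and 2 fell in the first. Ilk and parvin encode partners in the integrin-linked complex that ties integrins to actin. Ilk read 996, 1138 and 1090 in haploid cycle 14, 575, 583 and 541 in early cycle 15 and 156, 171 and 150 in late cycle 15. Its diploid arrays read 999, 1008 and 967, then 900, 909 and 926, then 266, 305 and 258. Haploid groups did not overlap at either step.

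parvin was at 1374, 1366 and 1419, then 1027, 883 and 885, then 410, 374 and 360 in the haploid stages. Its diploid arrays read 1244, 1177 and 1223 in cycle 13, 1200, 1152 and 1064 in early cycle 14 and 452, 476 and 464 in late cycle 14. As with Ilk, each haploid group lay below the one before it. Ilk changed by -0.92 ± 0.08 and then -1.84 ± 0.08 (adjusted p = 1.3e-08 and 3.5e-14), and parvin changed by -0.58 ± 0.08 and then -1.29 ± 0.08 (adjusted p = 3.7e-06 and 2.6e-12).

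The other 2 adhesion and polarity genes had no call in the first step. smash, a LIM-domain protein of apical junctions, had a first step of -0.34 ± 0.15 (adjusted p = 0.13) and a second of -2.03 ± 0.15 (adjusted p = 1.3e-10). dgo, a planar polarity gene, had a first step of -0.01 ± 0.15 and fell by 0.71 ± 0.15 in the second (adjusted p = 0.00042).

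Enzymes of cofactor and oxidation chemistry gave 2 members. mal encodes the sulfurase of the molybdenum cofactor, which xanthine dehydrogenase needs. It read 815, 756 and 777 in haploid cycle 14, 372, 381 and 372 in early cycle 15 and 57.8, 65.5 and 71.4 in late cycle 15. Diploids gave 679, 686 and 727, then 616, 631 and 627, then 158, 205.5 and 221. Haploid arrays were above diploid ones at the start and far below them at the end. mal changed by -1.06 ± 0.11 and then -2.54 ± 0.11 (adjusted p = 8.0e-08 and 1.1e-14), or 12.1-fold over both.

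Cyp6v1, a cytochrome P450, read 424, 443 and 476, then 415, 374 and 386, then 70.6, 102 and 82.7 in haploids. Its diploid arrays read 1048, 957 and 870, then 740, 969 and 978, then 293, 260 and 335. Every haploid group was below the diploid group 1 cycle earlier. Its haploid fall came in the second step (-2.22 ± 0.13, adjusted p = 1.9e-12), with -0.19 ± 0.13 in the first (adjusted p = 0.36).

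**Figure D4:**
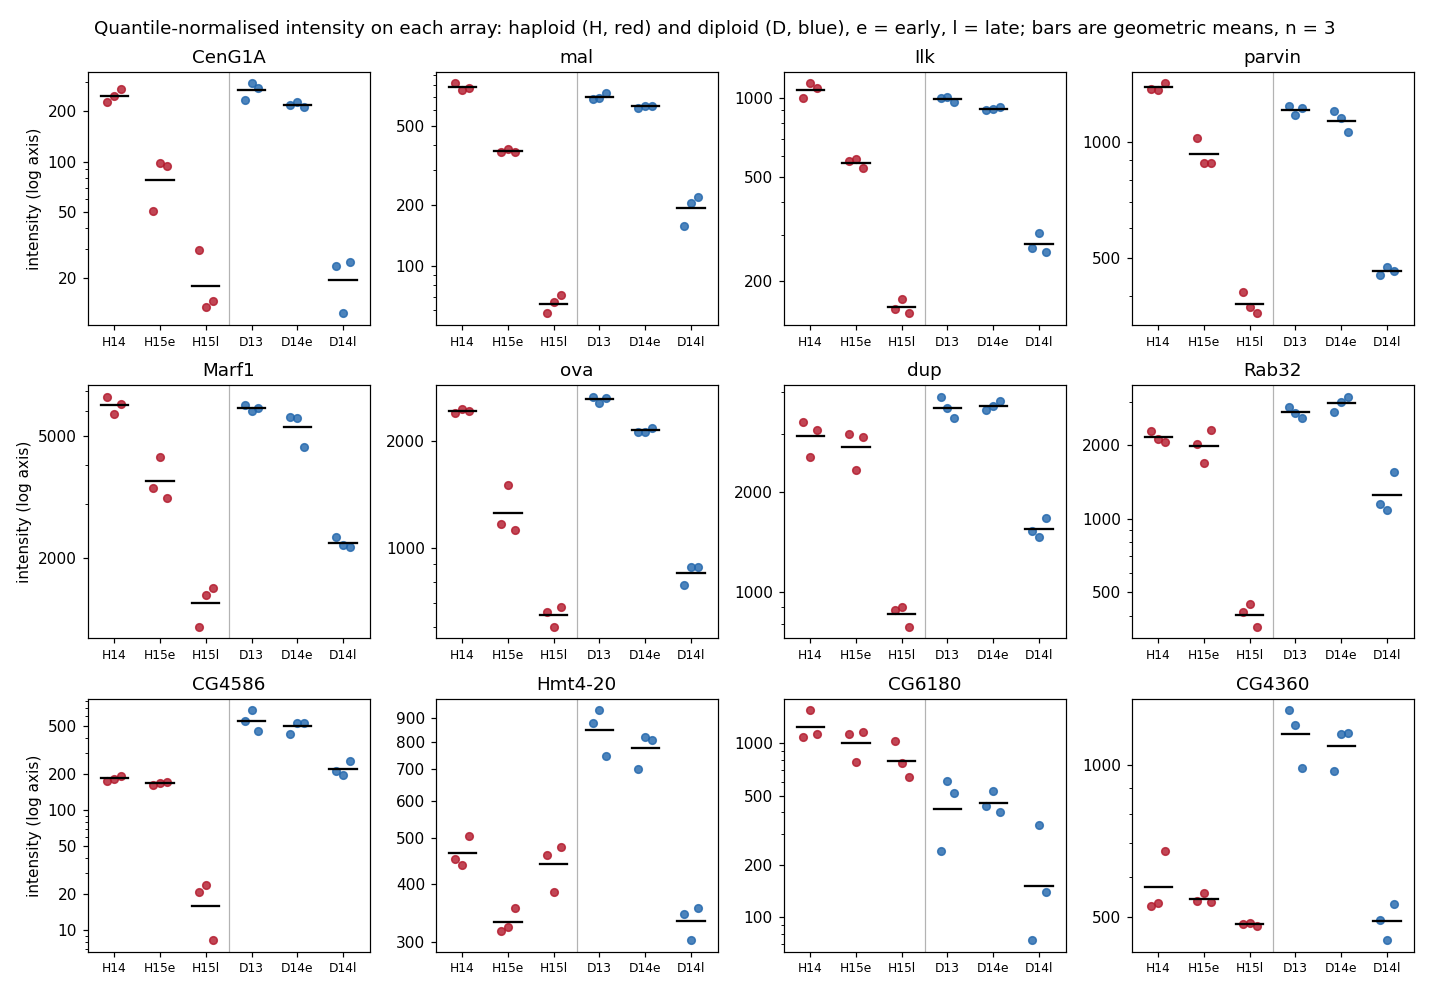
Quantile-normalised intensity (log axis, each panel with its own range) of 12 transcripts on each array, with haploid groups (red: cycle 14, early 15, late 15) left of diploid groups (blue: cycle 13, early 14, late 14) and bars at geometric means, n = 3. CenG1A, mal, Ilk, parvin, Marf1 and ova step down at each haploid stage; dup, Rab32 and CG4586 fall in the second step; Hmt4-20 has its lowest haploid arrays in early cycle 15.

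Of 10 genes of chromatin, the nucleus and transcription, 5 fell in the first step, and 9 fell and 1 rose in the second. Over both steps 9 fell, with a group median of -1.34. ova acts in heterochromatin formation guided by piRNAs. It read 2394, 2463 and 2425 in haploid cycle 14, 1167, 1501 and 1125 in early cycle 15 and 662, 600 and 684 in late cycle 15. Diploids read 2656, 2551 and 2635, then 2122, 2120 and 2171, then 787, 882 and 884. Its haploid steps were of one size, -0.95 ± 0.08 each (adjusted p = 7.8e-09 and 2.2e-09), with 50.0% of the fall present at early cycle 15.

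Hat1, a histone H4 acetyltransferase gene, fell 6.35-fold over both steps, with steps of -0.85 ± 0.11 and -1.82 ± 0.11. Ada2b, a subunit of the SAGA coactivator, fell 5.0-fold. Mnt, the antagonist of Myc, had a first step of -0.17 ± 0.17 (adjusted p = 0.60) and then fell by 2.14 ± 0.17 (adjusted p = 5.0e-10). Likewise crm, a partner of Polycomb-group genes, and indra, a protein bound at ribosomal DNA, had first steps of 0.06 ± 0.12 and -0.11 ± 0.09 and second steps of -1.36 ± 0.12 and -1.27 ± 0.09. These 5 were chosen as examples after their values were seen.

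Ote encodes a LEM-domain protein of the inner nuclear membrane. Its haploid arrays read 1284, 1095 and 1289, then 1011, 819 and 925, then 607, 588 and 462, against diploid values of 2168, 1848 and 1777, then 1441, 1612 and 1804, then 536, 546 and 616. It was lower in haploids than in diploids until the last stage, where the groups met. The steps of -0.41 ± 0.11 (adjusted p = 0.0070) and -0.74 ± 0.11 (adjusted p = 7.3e-06) were among the smaller ones, and the first was lost on the deposited values (adjusted p = 0.67) and without the intensity trend (adjusted p = 0.053).

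Hmt4-20, the methyltransferase of histone H4 lysine 20, was the only member that rose in a haploid step. It read 451, 438 and 505 in haploid cycle 14, 317, 324 and 355 in early cycle 15 and 460, 384 and 479 in late cycle 15. In diploids it read 879, 932 and 746, then 702, 820 and 807, then 345, 303 and 355. Haploid early cycle 15 lay below both other haploid groups, and the late haploid arrays were above all late diploid ones. The steps were -0.48 ± 0.10 (adjusted p = 0.0013) and 0.41 ± 0.10 (adjusted p = 0.0039), differing by -0.89 ± 0.18 (adjusted p = 0.0012). The first-step fall did not pass on the deposited values (-0.36, adjusted p = 0.12). The rise did not pass on the deposited values (adjusted p = 0.34), with median centring (adjusted p = 0.35) or with centring on ribosomal protein probe sets (adjusted p = 0.13).

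Genome copying, repair and division gave 3 members, and all 3 had a larger fall in the second step. dup encodes the licensing factor Cdt1, which loads the replicative helicase. It read 3252, 2556 and 3077 in haploid cycle 14, 3000, 2331 and 2934 in early cycle 15 and 885, 903 and 785 in late cycle 15. Its diploid arrays gave 3869, 3577 and 3338, then 3529, 3630 and 3769, then 1530, 1458 and 1664. Through the extra haploid division the arrays overlapped, and only the late ones stood apart. Its first step was -0.11 ± 0.09 (adjusted p = 0.52), its second -1.68 ± 0.09 (adjusted p = 8.9e-13).

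The spindle pole gene Wdr62 also had no call in the first step, with steps of -0.24 ± 0.12 (adjusted p = 0.20) and -2.12 ± 0.12 (adjusted p = 1.4e-12). Unlike dup, its early cycle 15 arrays all lay below its cycle 14 arrays. Nthl1, a glycosylase of base excision repair, fell in both, with steps of -0.78 ± 0.10 and -2.06 ± 0.10, or 7.14-fold in all. A wider list of DNA replication and repair had 47 measured genes, of which dup was the only member. In the first step 19 fell and 5 rose, where 9.87% and 10.4% of tested probe sets did so (27.7% and 15.3% of genes at 256 or above). In the second step 9 fell and 16 rose, where 14.8% and 14.1% did so (36.2% and 19.2% of genes at 256 or above).

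All 6 members that act on RNA or in germ cells fell in the second step, and 4 fell in the first. Marf1 read 6678, 5871 and 6343 in haploid cycle 14, 3381, 4263 and 3141 in early cycle 15 and 1198, 1525 and 1596 in late cycle 15. In diploids it read 6275, 6023 and 6128, then 5743, 5696 and 4605, then 2352, 2206 and 2181. Haploid groups were apart at each step, and the haploid and diploid starting levels were close. The steps were -0.82 ± 0.10 (adjusted p = 2.0e-06) and -1.32 ± 0.10 (adjusted p = 3.0e-10). A second Marf1 probe set, with group means of 2.53 to 10.6, was below background throughout.

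out, a gene related to monocarboxylate transporters and needed in germ cells, changed by -0.62 ± 0.11 and then -2.13 ± 0.11, or 6.72-fold in all. wun2, a lipid phosphate phosphatase that guides germ cells, fell 2.25-fold and Ranbp21, an exportin, 2.01-fold. enc, a germline gene, and ValRS, a valyl-tRNA synthetase, fell in the second step, with -0.86 ± 0.15 and -1.0 ± 0.15, and had no call in the first. For ValRS the difference between the steps did not pass (adjusted p = 0.065). The summed pole cell markers also declined between haploid stages, and their part in these falls was not tested.

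Of 7 members sorted under signalling, dbr among them, 5 fell in the first step, 6 in the second and 7 over both. IKKbeta, a kinase of the Imd immune pathway, fell 3.86-fold, S6KL, a kinase related to ribosomal S6 kinase, 3.26-fold, and PTP-ER, a phosphatase of MAP kinase, 2.77-fold. AMPKalpha, the catalytic subunit of the energy sensor AMPK, had a first step of -0.25 ± 0.13 (adjusted p = 0.21) and fell by 1.04 ± 0.13 in the second (adjusted p = 6.5e-07). Pdk1, the activator of Akt, fell in the first by 0.48 ± 0.10 (adjusted p = 0.00074), with a second step of -0.22 ± 0.10 (adjusted p = 0.11). Kcmf1, a ubiquitin ligase, stood at 959, 963 and 1025 in haploid cycle 14, 1007, 1079 and 1178 in early cycle 15 and 489, 492 and 340 in late cycle 15, so that its cycle 14 and early cycle 15 arrays overlapped, and it fell in the second step (-1.32 ± 0.12, adjusted p = 5.5e-09).

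The remaining 26 members have no role given here, and most carry only a CG number. In this group 16 fell in the first step, 23 in the second and 24 over both. CG4586 had no call in the first step and lay under background after the second. It read 175, 182 and 193 in haploid cycle 14, 161, 168 and 171 in early cycle 15 and 20.8, 23.9 and 8.27 in late cycle 15, all under background. Its diploid arrays read 555, 675 and 452, then 432, 533 and 534, then 213, 198 and 255. Through cycle 14 and early cycle 15 it held a level below that of late diploids. It then dropped by at least 5.22-fold (adjusted p = 7.7e-11 for the fitted step, not for this bound). The first step was -0.14 ± 0.24 (adjusted p = 0.79).

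CG5455 read 332, 229 and 218 in haploid cycle 14, 144, 128 and 133 in early cycle 15 and 30.5, 3.27 and 21.8 in late cycle 15, the last all under background. Its first step was -0.92 ± 0.45 (adjusted p = 0.18), and it fell by at least 4.22-fold in the second (adjusted p = 1.7e-06 for the fitted step). CG33090 read 516, 437 and 562, then 327, 274 and 312, then 38.8, 31.5 and 40.0 in haploids, with 1 of the last 3 arrays under background. It changed by -0.73 ± 0.12 (adjusted p = 9.7e-05) and then -3.05 ± 0.12 (adjusted p = 6.2e-15). CG7458 read 128, 118 and 145 in early cycle 15 and 27.9, 34.3 and 24.6 in late cycle 15, the latest with 2 arrays under background.

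CG12567 held its level through the added haploid division most closely. It read 2934, 2934 and 2822 in haploid cycle 14, 2761, 3145 and 2818 in early cycle 15 and 585, 709 and 669 in late cycle 15. Diploids gave 2099, 2465 and 2193, then 2822, 2681 and 2471, then 1137, 1325 and 1505. Its first step was 0.00 ± 0.09 (adjusted p = 0.99) and its second -2.15 ± 0.09 (adjusted p = 9.8e-15). CG5850 had a first step of 0.04 ± 0.11 and a second of -2.03 ± 0.11 (adjusted p = 7.3e-13).

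Large second-step falls also came from Gdap2 (-2.68 ± 0.16), CG7384 (-2.61 ± 0.13) and CG7156 (-2.48 ± 0.13), with first steps of -0.57 ± 0.16, -0.63 ± 0.13 and -0.40 ± 0.13. The first-step calls of Gdap2 and CG7156 were lost in several alternatives, with adjusted p of 0.28 and 0.62 on the deposited values, and that of CG7384 was lost on the deposited values (adjusted p = 0.14). CG10435 fell more evenly, by 0.88 ± 0.11 and then 1.12 ± 0.11 (adjusted p = 3.0e-06 and 2.5e-08). CG5746 had the largest share of its fall present at early cycle 15, 54.7%, with steps of -0.81 ± 0.10 and -0.67 ± 0.10 (adjusted p = 1.5e-06 and 8.3e-06).

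A few members changed little in haploids over both steps. CG4360 read 526, 533 and 676 in haploid cycle 14, 540, 558 and 536 in early cycle 15 and 485, 487 and 482 in late cycle 15. In diploids it read 1282, 1201 and 984, then 975, 1149 and 1154, then 494, 451 and 531. All 9 haploid arrays lay below the diploid arrays of cycle 13 and early cycle 14, in the range of late diploids or a little above. The total haploid change was -0.25 (adjusted p = 0.067).

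vsg showed the same arrangement, at 664, 792 and 1126, then 778, 668 and 717, then 710, 611 and 667 in haploids, against 1541, 1408 and 1470, then 1181, 1438 and 1463, then 668, 596 and 628 in diploids. Its total haploid change was -0.34 (adjusted p = 0.034), and it was -0.13 (adjusted p = 0.37) without replicate 3 of haploid cycle 14. CG2218 read 1121, 1159 and 1341, then 1297, 1312 and 1685, then 888, 910 and 867 in haploids and fell in the second step (-0.68 ± 0.12, adjusted p = 6.7e-05), with 0.24 ± 0.12 in the first (adjusted p = 0.19). CG1737 changed by -0.35 ± 0.11 and then -0.31 ± 0.11 (adjusted p = 0.023 and 0.032), and each call was lost in several alternatives, with the first at 0.79 on the deposited values.

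CG6180 varied widely between replicates. Its haploid arrays read 1085, 1545 and 1135, then 1123, 775 and 1162, then 1023, 769 and 637. Its diploid arrays read 239, 604 and 515, then 436, 529 and 400, then 73.5, 338 and 140. All haploid arrays were above all diploid ones, and consecutive haploid groups overlapped. Neither step passed (-0.30 ± 0.35 and -0.34 ± 0.35, adjusted p = 0.65 and 0.56).

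Haploid levels were then set beside diploid ones, as a description, since the diploid arrays had chosen the members. In the same cycle, 15 min into cycle 14, the median difference of haploid from diploid was -0.19, with 45 members lower and 29 higher. Haploid cycle 14 lay -0.29 from diploid cycle 13 at the median. At early cycle 15 haploids were lower than diploid early cycle 14 for 70 of the 74, with a median of -0.70, and higher than diploid late cycle 14 for 70, with a median of 0.65. At late cycle 15 they were lower than diploid late cycle 14 for 64 and higher for 10, with a median of -0.62. Of the 10025 tested genes, 4845 were lower in haploid cycle 14 than in diploid early cycle 14. At early cycle 15, 4702 were lower than in diploid early cycle 14 and 5172 higher than in diploid late cycle 14. At late cycle 15, 4899 were lower than in diploid late cycle 14. For most members haploid early cycle 15 stood between the early and the late diploid level of cycle 14, which the rule itself had set at least 2-fold apart.

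**Figure D5:**
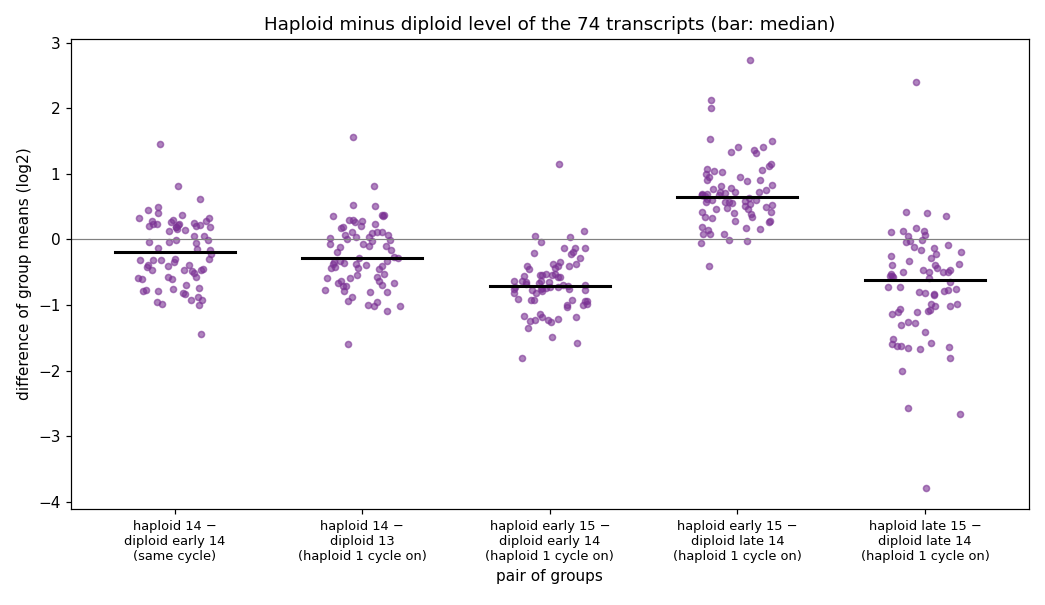
Difference of haploid from diploid group means (log2) for each of the 74 transcripts in 5 pairs of groups, with bars at the medians of -0.19, -0.29, -0.70, 0.65 and -0.62 from left to right. Points of haploid early cycle 15 lie mostly below diploid early cycle 14 and mostly above diploid late cycle 14.

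The members differed widely in their starting level. Haploid cycle 14 was below diploid early cycle 14 by -1.44 for CG4586, -1.0 for CG5746, -0.99 for Cyp6v1, -0.96 for enc, -0.93 for dgo and -0.92 for CG4360. It was above for CG6180 (1.46), CG9992 (0.81) and mdy (0.62). At the end, haploid levels lay far below diploid late cycle 14 for CG33090 (-2.66, with 1 late haploid array under background) and CG7384 (-2.01). CG4586 and CG5455 were under background in late haploids and above it on all late diploid arrays. Haploids ended highest relative to diploids for CG6180 (2.39), Reps (0.41) and Hmt4-20 (0.40).

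The rule used no position. By the chromosome arm in RefSeq, 20 members (27%) lie on X, where 16.6% of genes at 256 or above lie, and 7 (9.46%) on 3L, where 19.5% lie. The shares on 2L and 2R were 18.9% each, against 18.7% and 19.8% of those genes, and 25.7% of members lie on 3R, against 24.8%. Among protein-coding genes, Orp8, a lipid transfer protein gene, lies next to CG4360 on 3R, and Fur2 lies next to CG9992 on X.

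A further probe set existed for 6 members. Those of CG5850, Hat1, Marf1 and Orp8 were near or under background. The second smash probe set had group means of 50.9, 14.5 and 8.44 in haploids, against 61.7, 42.2 and 9.98 in diploids. It was thus already under background in haploid early cycle 15, with a first step of -1.81 and a second of -0.78, where the brighter smash probe set had its larger fall in the second step. The second CG33090 probe set had group means of 99.1, 66.3 and 19.4 in haploids, against 94.1, 106 and 35.8 in diploids, and so was lowest in the late groups of both, as the brighter one was.

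None of the 17 measured regulators of mRNA clearance was a member. Of these, smg met the thresholds but had been left out by name, and the others did not meet them. Over both haploid steps 13 of them fell and 3 rose, where 18.2% of tested probe sets fell and 19.6% rose. Of 31 enzymes of deadenylation, decapping and decay, 5 fell and 15 rose. Both nucleases of the CCR4-NOT deadenylase, named after their values were seen, fell in both haploid steps (adjusted p of 7.0e-05 or less). Pop2, a catalytic subunit of the CCR4-NOT deadenylase, averaged 2244 ± 25.5 in haploid cycle 14, 1469 ± 145 in early cycle 15 and 959 ± 21.7 in late cycle 15 (SD, n = 3). The other CCR4-NOT nuclease, twin, averaged 813 ± 105, 459 ± 64.9 and 306 ± 17.9 in the same order.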

How the data were processed

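RNA of about 50 embryos per replicate was labelled and hybridised to 18 Affymetrix arrays with 18952 probe sets. The authors deposited linear-scale intensities from MAS5, per the submitters' processing notes. Which version and which scaling target they used is not given in the sources used here. Values were floored at 0.1, quantile normalised over the 18 arrays and log2 transformed. A probe set was tested if at least 3 arrays reached the 40th percentile, an intensity of 12.0, which left 14560, and all 74 members passed.

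All 18 arrays entered 1 limma fit (version 3.58.1, R 4.3.3) with a mean for each of the 6 groups and an intensity trend. In each of 4 haploid contrasts, Benjamini-Hochberg adjustment covered every tested probe set. A call is an adjusted p under 0.05. The method was tested on simulated data. Where a group lay under background on every array, the fold is a lower bound against background. An adjusted p beside such a fold belongs to the fitted change.

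The members and lists were chosen with earlier results of these data known. Named genes are the 8 largest diploid differences, the 8 largest called falls in each haploid step, the 6 smallest total falls and any called rise, the 6 largest called step differences each way, the 4 brightest members, the 3 nearest each threshold on either side, and members on the lists. Roles were assigned after the members were seen, and other members named as examples of a role were chosen after their values were seen. In the array annotation 13647 probe sets name a single symbol, 402 name several and 4720 name no gene. The number of arrays limits the precision. Alternatives were other scalings, filters, trend and fit settings, a pseudocount, the median over probe sets, a replicate block and leaving out each replicate.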

Additional observations from a re-analysis of the deposited data

Results flagged for a closer look

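Hmt4-20 moved in opposite directions in the matched late steps. Its level was higher on all 3 haploid late cycle 15 arrays than on any early cycle 15 array, a second step of 0.41 on the log2 scale, and it was lower on all 3 diploid late cycle 14 arrays than on any early cycle 14 array, by -1.22. The diploid difference had chosen the gene, so the difference between the ploidies was not tested. The haploid rise passed with quantile normalisation alone among the 4 scalings.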

How the results depend on the processing

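The number of genes that met the rule was 317 on the deposited values (58 of them among the 74), 218 with median centring (65) and 137 with centring on ribosomal protein probe sets (51), and 71 to 83 when chosen without 1 diploid replicate. The first haploid step called 29 members on the deposited values. The median share of the fall present at early cycle 15 was 16.9% on the deposited values and 32.1% and 31.7% under the 2 centrings, and 26.4% to 28.9% leaving out 1 replicate. Without 1 replicate the calls ran from 42 to 50 in the first step, 68 to 69 in the second, 70 to 72 over both and 42 to 49 for the step difference. With quantile normalisation the median of all tested probe sets was 0.03 in the first step, -0.03 in the second and -0.03 over both. On the deposited scale it was 0.38 in the first step and 0.34 over both. With median centring it was -0.16 in the second and -0.23 over both. Relative to that median, the members changed by -0.67 and -1.54 on the deposited scale, and the 2 centrings give these same values by construction. Of 77 single-gene results, 1 reversed: the first step of Marf1 was 0.019 with the median over its probe sets, the dimmer of which is under background. Across all alternatives of these results 41 values lost their call and 1421 kept direction and call. The replicate block gave 48, 69, 71 and 48 calls, the same as without it. Replicate numbers did not pair the samples: residuals of same-numbered arrays correlated at -0.02 to 0.03, and 7 of 18 arrays correlated best with their own number. The causes of these shifts were not tested. Array number and background signal limit the late haploid levels of CenG1A, CG5455 and CG4586.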
